A study of Mus musculus with 8 samples.

Results

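Complement is a set of plasma and tissue proteins that tags cells and debris for clearance and draws in leukocytes. The 9 genes described here encode 8 of its components and 1 regulator: C1qa, C1qb and C1qc (the chains of C1q), C1rb and C1s1 (serine proteases of the C1 complex), C4b, C3, Cfb (factor B) and Serping1 (C1 inhibitor). They were taken as 9 named rows out of 19024 genes in all 8 expression matrices. They had been selected on their levels in cells of Atg7-deleted against wild-type hosts and in macrophages against fibroblasts. Those 2 contrasts are therefore given below as description. The 9 genes were part of a fit across all genes for the host contrast, and nothing is read from how many of them it called. The tests read for the 9 genes concern the proportions of the C1q chains, and comparisons of cells within a library. The selection did not use these measures, but the chain proportions come from the same UMIs as the selected levels.

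The tumors were grown from MB49, a mouse urothelial carcinoma line, injected under the skin of the flank, with 2 tumors per mouse. Deleted hosts were C57BL/6 UbcreERT2/+;Atg7f/f mice (4 tumors, libraries 3, 4, 7 and 8), and wild-type hosts were UbcreERT2/+;Atg7+/+ mice (4 tumors, libraries 1, 2, 5 and 6). All hosts carried the tamoxifen-inducible Cre, which is driven by a ubiquitously active promoter, and received tamoxifen for 4 days, 1 week before the injection. Atg7 encodes an enzyme needed for autophagosome formation. The deletion concerns host cells and not the injected MB49 cells, which keep their own Atg7. Tumors were collected 3 weeks after injection, dissociated, passed through density centrifugation and sequenced as 10x Genomics 5′ single-cell libraries. The ages of the mice, and which tumors shared a mouse, are not given in the labels. If tumors of 1 mouse are among these libraries, the p-values below are too small.

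After filters 28488 cells were kept, 938 to 5796 per library. Total unique molecular identifiers (UMIs, each one captured RNA molecule) ranged from 4371773 to 59235799 per library. Cells were clustered and classes rebuilt from marker genes, so class names carry the suffix -like. Macrophage-like cells numbered 2140, 1556, 214 and 2142 in deleted libraries 3, 4, 7 and 8, and 712, 887, 584 and 1164 in wild-type libraries 1, 2, 5 and 6. Fibroblast-like cells numbered 903, 70, 343 and 383 in deleted libraries, and 46, 32, 53 and 64 in wild-type libraries, so the wild-type fibroblast-like values rest on few cells. Atg7 itself had 0.0957, 0.146, 0.0131 and 0.139 UMIs per 10000 in macrophage-like cells of deleted libraries 3, 4, 7 and 8, and 0.437, 0.329, 0.189 and 0.17 in wild-type libraries 1, 2, 5 and 6. Every deleted library lay below every wild-type library. In fibroblast-like cells Atg7 averaged 0.101 ± 0.0942 in deleted and 0.148 ± 0.171 in wild-type libraries (SD, n = 4 each), and the groups overlapped. Atg7 was not lower in deleted hosts in every class: it averaged 0.551 ± 0.206 in deleted and 0.423 ± 0.177 in wild-type libraries in neutrophil-like cells, and 0.182 ± 0.0527 in deleted and 0.162 ± 0.0726 in wild-type libraries in T-like cells, with overlap in both. Which exons of Atg7 are removed is not given in the labels, so UMIs read at the 5′ end may lie outside it.

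Library 3 stood apart and is treated separately where it matters. RNA of 7 fibroblast markers (Col1a1, Col1a2, Col3a1, Dcn, Pdgfra, Lum and Dpt) summed to 54.5, 16.3, 1.83 and 0.838 UMIs per 10000 in the macrophage-like cells of deleted libraries 3, 4, 7 and 8. The same sum was 2.27, 0.497, 0.0755 and 0.0817 in wild-type libraries 1, 2, 5 and 6. Libraries were also placed in 2 sets by their cell barcodes. Pairs within libraries 1 to 4 shared 0 to 5 barcodes and pairs within libraries 5 to 8 shared 7 to 46, while a pair across the sets shared at most 1. The first set is thus weakly marked, since libraries 1 and 4 shared 0. Each set holds 2 deleted and 2 wild-type libraries, and ratios within sets are given as those of libraries 1 to 4 and of libraries 5 to 8. The sets were read from the data. How many of all genes keep the same order within both sets was not counted, so such an order is given below as description only.

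C1q binds antibody or other ligands and, with the proteases C1r and C1s, forms the C1 complex. C1s cleaves C4 and C2, and the resulting convertase cleaves C3. Factor B forms the C3 convertase of the alternative pathway, which amplifies C3 cleavage. C1 inhibitor, the product of Serping1, inactivates C1r and C1s. Tissue macrophages are a known source of C1q, and mesenchymal cells are a known source of C1r, C1s, C3 and C1 inhibitor.

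The genes lie in a few chromosome regions (mm10, GENCODE M21). C1qa, C1qb and C1qc are neighbours on the minus strand of chromosome 4, within 18.7 kb. C1s1 (chr6:124530345-124542359, minus strand) and C1rb (chr6:124570294-124581171, plus strand) lie with C1ra and C1s2 in a 124-kb stretch of chromosome 6. That stretch is on the same chromosome as Atg7, 9.65 Mb away from its nearer end. C4b and Cfb lie near each other on chromosome 17 in the major histocompatibility region, and C3 lies elsewhere on chromosome 17 (chr17:57203970-57228136). Serping1 is on chromosome 2.

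The sequences before the starts of 5 of these genes are printed because the C1q genes moved together between macrophage-like clusters, and C1s1, C1rb and C3 were highest in fibroblast-like cells and are in the table used. They are from RefSeq, build GRCm38.p6, and run 5′ to 3′ on the strand of the gene. Each holds up to 250 bases before the RefSeq start, without bases that GENCODE places inside the gene. The table used here gives none for C1qa, C4b, Cfb and Serping1. Capitals mark matches, on either strand, to GAGGAA (an ETS-family core that PU.1 binds) or TTGCNNAA (a C/EBP half-site pair). The regions are chr4:136886201-136886450 (minus strand) for C1qb, chr4:136893066-136893164 (minus) for C1qc, chr6:124570180-124570293 (plus) for C1rb, chr6:124542360-124542609 (minus) for C1s1 and chr17:57228137-57228386 (minus) for C3.
C1qb: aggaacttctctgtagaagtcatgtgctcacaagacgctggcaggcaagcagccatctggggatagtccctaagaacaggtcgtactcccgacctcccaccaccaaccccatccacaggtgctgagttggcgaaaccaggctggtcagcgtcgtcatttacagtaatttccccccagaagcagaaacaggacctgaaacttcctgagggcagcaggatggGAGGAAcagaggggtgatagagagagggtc
C1qc: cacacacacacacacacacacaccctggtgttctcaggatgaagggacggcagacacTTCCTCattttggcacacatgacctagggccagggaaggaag
C1rb: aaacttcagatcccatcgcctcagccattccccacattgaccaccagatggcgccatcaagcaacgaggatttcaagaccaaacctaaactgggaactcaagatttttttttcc
C1s1: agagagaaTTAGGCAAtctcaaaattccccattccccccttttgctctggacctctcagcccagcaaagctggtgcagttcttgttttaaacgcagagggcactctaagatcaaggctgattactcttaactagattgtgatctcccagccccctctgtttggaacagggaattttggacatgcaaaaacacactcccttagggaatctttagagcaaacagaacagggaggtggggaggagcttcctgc
C3: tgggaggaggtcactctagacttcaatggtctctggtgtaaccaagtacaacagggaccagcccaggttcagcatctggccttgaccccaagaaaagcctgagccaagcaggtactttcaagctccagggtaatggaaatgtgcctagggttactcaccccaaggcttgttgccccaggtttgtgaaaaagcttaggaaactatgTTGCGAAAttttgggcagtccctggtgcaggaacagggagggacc
The C1qb and C1qc regions each held 1 GAGGAA match, on the reverse strand in C1qc, and the C1s1 and C3 regions each held 1 TTGCNNAA match. The STAT-type motif TTCNNNGAA and the core of the interferon-stimulated response element matched nowhere in the printed bases. For C1rb the full window of 250 bases held 1 TTGCNNAA and 1 TTCNNNGAA match, both outside the 114 bases printed. Among 32851 mouse promoters, 250 bases long, 23.3% held GAGGAA, 9.56% TTGCNNAA, 7.02% TTCNNNGAA and 2.98% the response element core on either strand. A match describes the letters only.

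The C1q chains were macrophage-like genes in all 8 libraries. Averaged over libraries, C1qa had 7.81 UMIs per 10000 in macrophage-like cells, against 0.446 in fibroblast-like cells, 0.554 in dendritic-like cells and 0.155 in T-like cells. C1qb averaged 7.37 and C1qc 7.44 in macrophage-like cells, against 0.337 and 0.314 in fibroblast-like cells. Macrophage-like cells held 75.6% to 96.1% of each library's C1qa UMIs.

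In macrophage-like cells C1qa had 20, 9.8, 6.18 and 5.86 UMIs per 10000 in deleted libraries 3, 4, 7 and 8, and 7.31, 8.33, 1.89 and 3.11 in wild-type libraries 1, 2, 5 and 6. The groups overlapped, since libraries 7 and 8 lay below wild-type libraries 1 and 2, but within a barcode set neither wild-type library reached the level of a deleted one. The ratio of means was 2.03 (10.5 ± 6.61 in deleted against 5.16 ± 3.14 in wild-type libraries, SD, n = 4 each), 1.91 within libraries 1 to 4 and 2.41 within libraries 5 to 8. Without library 3 it was 1.41.

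C1qc followed C1qa, with 17.0, 10.3, 5.09 and 5.77 UMIs per 10000 in deleted libraries 3, 4, 7 and 8 and 5.91, 8.07, 2.69 and 4.66 in wild-type libraries 1, 2, 5 and 6. The ratio of means was 1.79, or 1.32 without library 3, and again the order held within each set while the groups overlapped across sets. C1qb varied less between genotypes: 12.8, 8.38, 3.54 and 8.52 in deleted libraries, and 5.64, 9.45, 3.61 and 7.01 in wild-type libraries. Its ratio was 1.29, and 1.06 without library 3, and libraries of both groups were interleaved within each set.

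**Figure D1:**
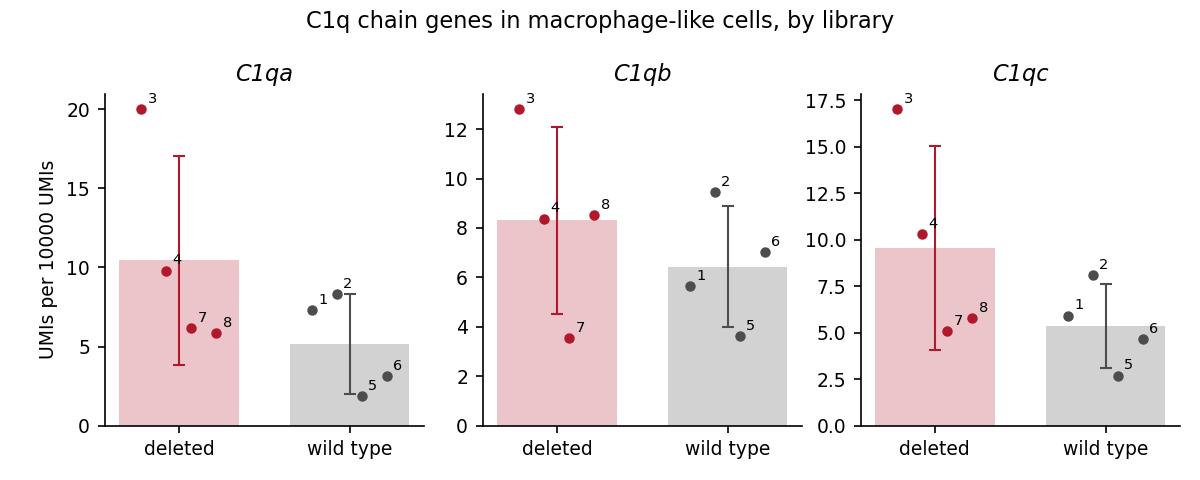
Levels of the C1q chain genes in macrophage-like cells (y axis, UMIs per 10000), 1 point per library with its number, bars the mean and whiskers the SD of 4 libraries, deleted hosts left of wild-type hosts. Library 3 is the highest point of each panel and the groups overlap in all 3; mean C1qa is 10.5 in deleted and 5.16 in wild-type libraries.

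The balance between the 3 chains was tested, although it comes from the same UMIs as the levels used for the selection. The test is therefore not independent of that selection. C1qa made up 35.2% ± 5.35 of the summed C1q UMIs of macrophage-like cells in deleted libraries and 28.8% ± 7.76 in wild-type libraries (SD, n = 4 each). C1qb made up 33.3% ± 7.45 in deleted and 40.2% ± 8.01 in wild-type libraries, and C1qc 31.5% ± 2.73 in deleted and 31.0% ± 0.663 in wild-type libraries. The differences, deleted minus wild type, were 6.35, -6.89 and 0.533 percentage points. None passed the two-sided exact permutation test over libraries: adjusted p = 0.3 for C1qa and C1qb and 0.771 for C1qc, where 4 against 4 libraries cannot go below 0.0286. An exact permutation within barcode sets gave p = 0.111 for C1qa and 0.0556 for C1qb, the smallest that test allows. Within each set the C1qb share was lower in both deleted libraries, at 27.3% and 30.9% in libraries 3 and 4 against 31.1% and 36.3% in libraries 1 and 2, and at 30.9% and 44.2% in libraries 7 and 8 against 44.5% and 48.9% in libraries 5 and 6. For the C1qa share library 4, at 35.1%, lay below wild-type library 1, at 37.9%, and the other within-set pairs were higher in deleted libraries.

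Detection per cell followed the levels. With every cell thinned to 1000 UMIs, 82.5%, 70%, 38.9% and 54.0% of macrophage-like cells held a UMI of at least 1 chain in deleted libraries 3, 4, 7 and 8, and 48.0%, 51.4%, 21.7% and 44.8% did in wild-type libraries 1, 2, 5 and 6. All 3 chains together were seen in 44.1%, 22.3%, 3.97% and 16.3% of deleted and 14.9%, 23.0%, 3.34% and 10.2% of wild-type macrophage-like cells. T-like cells, which should lack C1q, gave at least 1 chain in 8.87%, 4.71%, 0% and 1.77% of cells of deleted libraries and 2.13%, 3.33%, 1.27% and 0.836% of cells of wild-type libraries. In every library the T-like share was far below the macrophage-like share. Before thinning, C1qa alone was seen in 11.3% to 74.6% of macrophage-like and 0% to 11.6% of T-like cells per library. Median depth per library was 1010.5 to 3787 UMIs in macrophage-like cells and 2033 to 4471 in T-like cells.

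Different clusters held the macrophage-like cells of different libraries, and C1qa differed widely between them. Mean C1qa was 36 UMIs per 10000 in cluster 13 (led by Cbr2, Clec10a and Cd163), 25.6 in cluster 3 (Retnla, Selenop, Folr2), 10.5 in cluster 11, 8.43 in cluster 12, 7.17 in cluster 2, 3.96 in cluster 7 (Mmp13, Inhba) and 0.93 in cluster 14, which carries the monocyte genes Ly6c2 and Ccr2. Of cluster 13's 1019 cells, 940 came from library 3. Clusters 12 and 13 held 49.3% and 43.9% of that library's macrophage-like cells. Cluster 11 held 82.8% of those of library 4, cluster 7 held 67.0% and 72.7% of those of wild-type libraries 1 and 2, and cluster 2 held 72.9%, 72.4%, 70.5% and 77.9% of those of libraries 7, 8, 5 and 6. The clusters were formed on expression that includes these genes, so these levels are a description, and clusters formed mostly by 1 library cannot be told apart from that library.

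Beyond the 9 genes, the levels most like summed C1q over 59 class-by-library means belonged to Apoe (Pearson r = 0.91), F13a1 (0.90), Ms4a7 (0.88), C3ar1 (0.87) and Clec4a1 (0.86). C3ar1 encodes the receptor for the C3 fragment C3a. The means share libraries and depth, and these r values are descriptive.

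The proteases of C1 were fibroblast-like genes. C1s1 had 13.2, 8.57, 8.51 and 9.71 UMIs per 10000 in fibroblast-like cells of deleted libraries 3, 4, 7 and 8, and 6.42, 6.19, 5.33 and 2.85 in wild-type libraries 1, 2, 5 and 6. Every deleted library lay above every wild-type library. On the log scale of the deposited values this held for 345 of 9184 genes tested in these cells (3.76%), C1s1 among them. The group means of C1s1 had a ratio of 1.92 (10.0 ± 2.21 in deleted against 5.2 ± 1.63 in wild-type libraries). The ratio was 1.73 within libraries 1 to 4, 2.23 within libraries 5 to 8, and 1.72 without library 3. Macrophage-like cells held little C1s1, at 2.48, 0.727, 0.0187 and 0.0267 UMIs per 10000 in deleted libraries and 1, 0.225, 0.0293 and 0.00887 in wild-type libraries. Its ratio there was 2.57, and 0.815 without library 3.

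C1s1 was also present in the MB49 malignant-like cells, at 4.75, 1.65, 1.62 and 2.03 UMIs per 10000 in deleted libraries 3, 4, 7 and 8, and 2.62, 1.58, 1.63 and 1.46 in wild-type libraries 1, 2, 5 and 6. With cells thinned to 1000 UMIs it was seen in 12.5% to 40.6% of malignant-like cells of each library, against 0% to 1.48% of T-like cells (unthinned 37.6% to 79.9% against 0% to 14.7%). The 2 groups overlapped, and library 3 was the highest, with only 42 malignant-like cells. Since malignant-like cells were abundant in wild-type libraries (1271 to 4157 cells, against 42 to 149 in deleted libraries), they held 89.5% to 97.8% of the wild-type libraries' C1s1 UMIs, against 0.46% to 22.5% in deleted libraries. Fibroblast-like cells held 62.5% to 92.1% of C1s1 UMIs in deleted libraries and 1.31% to 6.0% in wild-type libraries. How many cells of a class reached a library depends on dissociation and density centrifugation as well as on the tumor.

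C1rb, one of the 2 mouse genes for C1r, was detected in fibroblast-like cells of deleted hosts and in none of wild-type hosts. Fibroblast-like cells held 1104, 61, 182 and 204 C1rb UMIs in deleted libraries 3, 4, 7 and 8, and 0 in each of wild-type libraries 1, 2, 5 and 6. As levels these were 0.78, 0.566, 1.65 and 0.658 UMIs per 10000 in deleted libraries. A UMI of C1rb was seen in 60.9%, 45.7%, 35.6% and 38.1% of deleted fibroblast-like cells. All 4 deleted libraries were thus above 0, and no wild-type fibroblast-like cell had a UMI.

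The 195 wild-type fibroblast-like cells held 1434757 UMIs, and 3 counts over the group correspond to a floor of 0.0209 UMIs per 10000. The summed deleted level was 0.802 (1551 UMIs in 1699 cells), at least 38.4-fold higher than that floor. These limits cover counting error only. The matrices of libraries 5 and 6 have no C1rb row at all. Such rows were read as 0, although a matrix may leave out a gene that very few cells held.

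Set beside its neighbour C1ra, C1rb made up 11.6%, 10.9%, 22% and 15.3% of the summed C1ra and C1rb UMIs of fibroblast-like cells in deleted libraries 3, 4, 7 and 8, with 95% exact binomial intervals from 8.45% (lowest, library 4) to 25% (highest, library 7). Over the 4 wild-type libraries it was 0 of 298 UMIs, which allows a share of up to 1.01%, against 12.7% over the deleted libraries. Taken singly, wild-type libraries 1, 2, 5 and 6 had 0 of 118, 90, 45 and 45 UMIs, with upper bounds of 3.08%, 4.02%, 7.87% and 7.87%. The genotype contrast of C1rb chose this gene, so these shares are a description, and the summed values pool UMIs over libraries. C1ra itself was at 6.11, 4.82, 5.2 and 3.28 UMIs per 10000 in deleted libraries and 3.17, 2.92, 1.42 and 0.841 in wild-type libraries, again with no overlap. On the log scale of the deposited values, C1ra was among the 3.76% of genes tested in these cells with no overlap in this direction.

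C1rb UMIs were not confined to fibroblast-like cells of deleted hosts. Macrophage-like cells held 50, 19 and 9 C1rb UMIs in deleted libraries 3, 4 and 8, and 0 in library 7 and in the 4 wild-type libraries. Their levels were 9.62%, 4.63% and 4.8% of the fibroblast-like level of the same library. The 7 fibroblast markers stood at 8.17% to 17.7%, 1.61% to 3.74% and 0.0879% to 0.595%. C1rb thus lay within the marker range in library 3 and above it in libraries 4 and 8. The part of RNA shared from fibroblasts was not tested. Small counts of 1 or 2 UMIs appeared in endothelial-like, mast-like, neutrophil-like, malignant-like and unnamed cells of deleted libraries. In wild-type hosts, malignant-like cells held 6 UMIs in library 1 and 2 in library 2, beside 9210 C1ra UMIs in wild-type malignant-like cells, a share of 0.0868%. Wild-type tumors therefore held C1rb in 8 malignant-like UMIs and in no other class.

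C1s2, the second mouse gene for C1s, made up 8.49%, 7.95%, 3.93% and 3.59% of the summed C1s1 and C1s2 UMIs of fibroblast-like cells in deleted libraries 3, 4, 7 and 8, and 0.369%, 1.04%, 0% and 0% in wild-type libraries 1, 2, 5 and 6. The groups did not overlap in this share. As a level on the log scale, C1s2 was among the 3.76% of genes with every deleted above every wild-type library. In malignant-like cells C1s2 took 0.319% to 2.27% in deleted libraries and 0.608% to 0.869% in wild-type libraries, where the groups overlapped.

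C1rb and C1ra are near-identical over part of their length: 44.9% of the 91-base windows of C1rb transcripts occur in C1ra, and 36.3% of those of C1ra occur in C1rb. For C1s1 and C1s2 the shares were 8.82% and 11.2%. The windows cover whole transcripts, while these libraries were read from the 5′ end, so these are not shares of ambiguous reads. Reads from shared windows cannot be assigned by sequence alone, so the exact split between copies is uncertain, and C1rb may be undercounted in every library. All of these genes lie on the chromosome that carries Atg7, and the deleted hosts differ from wild-type hosts in their Atg7 alleles. Loss of Atg7 and alleles linked to the floxed locus cannot be told apart in this design.

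The levels most like C1s1 over the same 59 means belonged to Ackr3 and Aebp1 (r = 0.95 each), Angptl2 and Pcolce (0.94 each) and Sema3c (0.93). Pcolce encodes an enhancer of procollagen processing.

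C4b, the substrate of C1s, was highest in fibroblast-like cells. It had 15.5, 13.3, 7.25 and 4.09 UMIs per 10000 in deleted libraries 3, 4, 7 and 8, and 6.97, 5.34, 2.7 and 1.13 in wild-type libraries 1, 2, 5 and 6. Library 8 fell below 2 wild-type libraries of the other barcode set, but inside a set the deleted pair was always higher than the wild-type pair. The ratio of means was 2.49 (10.0 ± 5.28 against 4.03 ± 2.62), or 2.04 without library 3, and 2.34 and 2.96 within libraries 1 to 4 and 5 to 8.

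In macrophage-like cells C4b had 6.52, 1.41, 0.955 and 0.475 UMIs per 10000 in deleted libraries and 1.25, 0.324, 0.106 and 0.0498 in wild-type libraries. The ratio was 5.41, or 2.19 without library 3, and within each set the deleted libraries were higher. Over whole transcripts C4b shares 17.5% of its 91-base windows with C4a, for which these matrices have no row, so part of its reads may be uncounted.

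C3, the central component on which the pathways converge, was highest in fibroblast-like cells. It reached 61.3, 27.3, 22.1 and 15.2 UMIs per 10000 in deleted libraries 3, 4, 7 and 8, and 15.4, 14, 3.39 and 2.95 in wild-type libraries 1, 2, 5 and 6. Only library 8 overlapped with wild type, at 15.2 against 15.4 in library 1. The ratio of means was 3.52 (31.5 ± 20.5 against 8.94 ± 6.68), 3.01 within libraries 1 to 4 and 5.88 within libraries 5 to 8, and 2.41 without library 3. On the log scale of the deposited values, averaged over cells, all 4 deleted libraries lay above all 4 wild-type libraries, as for 3.76% of genes tested.

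In macrophage-like cells C3 was lower, at 12.2, 3.06, 1.33 and 1.04 UMIs per 10000 in deleted libraries and 1.71, 1.77, 0.936 and 1.41 in wild-type libraries. The ratio of 3.03 rested on library 3 and fell to 1.24 without it. It was 4.39 within libraries 1 to 4 and 1.01 within libraries 5 to 8.

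Neutrophil-like cells were a further site of C3, at 7.96, 6.16, 1.68 and 3.17 UMIs per 10000 in deleted libraries 3, 4, 7 and 8, and 2.05, 1.48, 1.25 and 2.22 in wild-type libraries 1, 2, 5 and 6. At 1000 UMIs a cell, C3 was seen in 46.2%, 41.4%, 10.0% and 26.2% of neutrophil-like cells of deleted libraries and in 14.6%, 13.2%, 17.4% and 19.9% of those of wild-type libraries. The T-like shares were 20.2%, 2.35%, 0% and 0.253% in deleted and 0%, 0%, 0% and 0.279% in wild-type libraries. Without thinning the neutrophil-like shares were 61.6%, 60.6%, 10.3% and 31.4% in deleted and 23.1%, 16.1%, 8.99% and 19.4% in wild-type libraries, and T-like shares ranged over 0% to 47.3%. In each library the thinned T-like share was below the neutrophil-like share, where library 7 rests on 10 neutrophil-like cells. In neutrophil-like cells of all libraries but 3, C4b was at or below 0.181 and Cfb at or below 0.226 UMIs per 10000.

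Cfb, the protease of the alternative pathway, had 4.75, 3.59, 1.86 and 1.29 UMIs per 10000 in fibroblast-like cells of deleted libraries 3, 4, 7 and 8, and 1.03, 1.71, 0.417 and 0.328 in wild-type libraries 1, 2, 5 and 6. Library 8 fell below wild-type library 2, and within each set the groups did not overlap, a pattern not counted over all genes. The ratio of means was 3.3, and 2.58 without library 3. Macrophage-like cells held 2.26, 1.31, 0.497 and 0.296 in deleted and 0.517, 0.751, 0.055 and 0.168 in wild-type libraries, a ratio of 2.93, or 1.88 without library 3.

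Serping1 averaged 16.8 UMIs per 10000 over libraries in fibroblast-like cells, against 0.671 in macrophage-like cells. Fibroblast-like levels were 23.4, 14, 22.4 and 22 in deleted libraries 3, 4, 7 and 8, and 9.72, 19.5, 13.0 and 10.2 in wild-type libraries 1, 2, 5 and 6. The groups overlapped, because library 4 was the lowest deleted and library 2 the highest wild-type library. Deleted over wild-type means gave 1.56 (20.4 ± 4.34 against 13.1 ± 4.5), or 1.49 without library 3.

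In macrophage-like cells Serping1 had 4.21, 0.487, 0.388 and 0.0255 UMIs per 10000 in deleted libraries and 0.214, 0.0447, 0 and 0 in wild-type libraries. Thinned to 1000 UMIs, its share of macrophage-like cells exceeded that of T-like cells of the same library only in libraries 3 (25.6% against 8.06%) and 4 (3.36% against 0%). In the other 6 libraries it was at or below the T-like share. In library 1, however, 145 UMIs lay in 1.26% of 712 macrophage-like cells, and the T-like share there rests on 47 cells. Unthinned shares were 0% to 57.8% of macrophage-like and 0% to 27.1% of T-like cells.

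**Figure D2:**
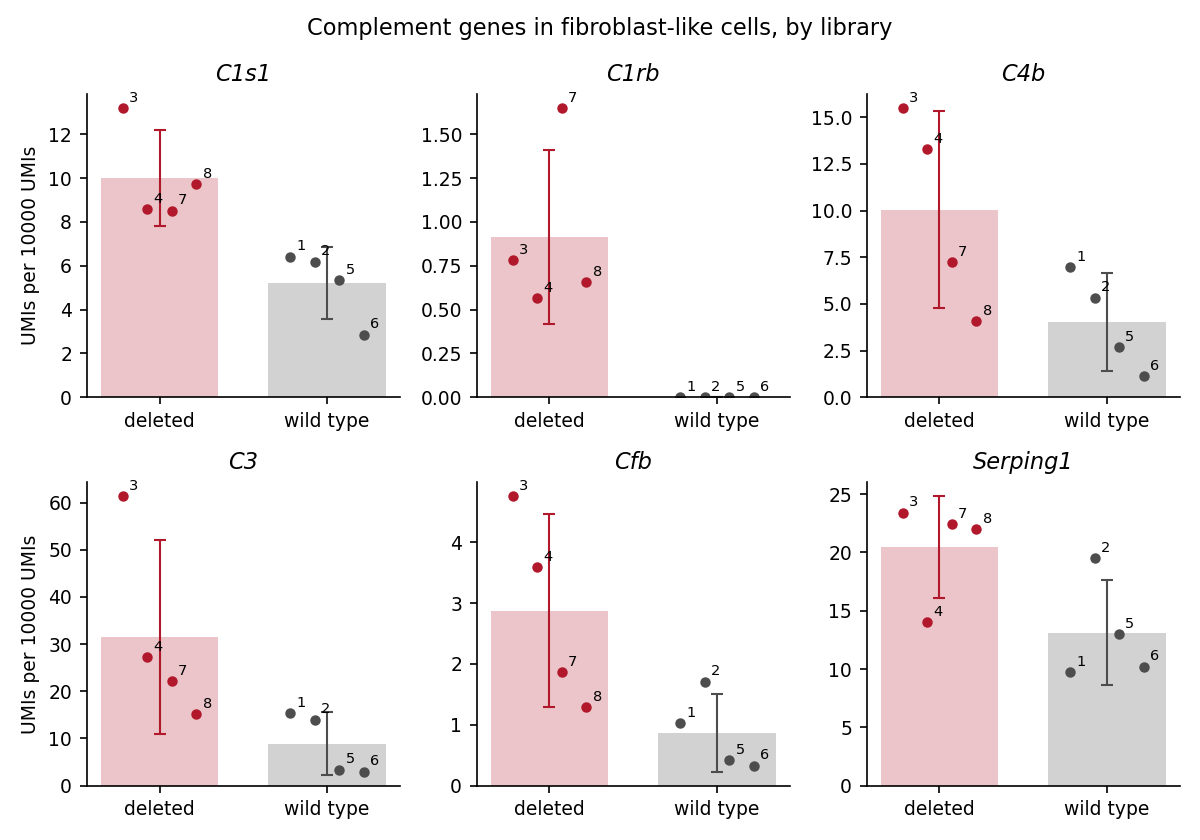
Levels of 6 complement genes in fibroblast-like cells (y axes, UMIs per 10000), 1 point per library with its number, bars the mean and whiskers the SD of 4 libraries, deleted hosts left of wild-type hosts. C1s1 and C1rb do not overlap between the groups, and C1rb is 0 in all 4 wild-type libraries.

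Taken by class, the 9 genes split into 2 groups. The 3 C1q chains were highest in macrophage-like cells, and C1rb, C1s1, C4b, C3, Cfb and Serping1 were highest in fibroblast-like cells. Averaged over libraries, C3 was at 2.93 UMIs per 10000 in macrophage-like, 20.2 in fibroblast-like and 3.25 in neutrophil-like cells. Cfb was at 0.732 in macrophage-like and 1.87 in fibroblast-like cells.

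**Figure D3:**
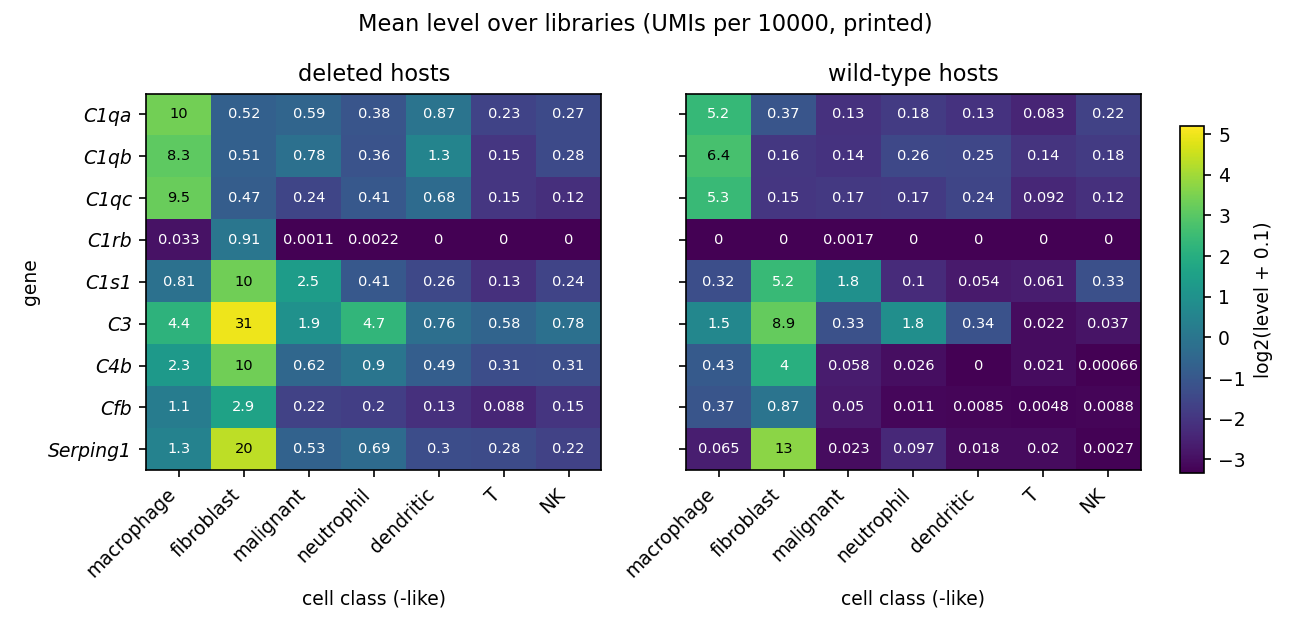
Mean level over libraries (numbers, UMIs per 10000; colour, log2 of the level plus 0.1) of the 9 genes (rows) in 7 cell classes (columns), deleted hosts left of wild-type hosts; libraries with fewer than 20 cells of a class are left out. C1qa, C1qb and C1qc are highest in the macrophage column and the other 6 genes in the fibroblast column in deleted hosts; C1rb is near 0 in every column in wild-type hosts.

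How much of a macrophage-like level could be RNA shared from fibroblasts was read from the 7 fibroblast markers, each as a percentage of its fibroblast-like level in the same library. The markers ranged from 8.17% to 17.7% in library 3, 1.61% to 3.74% in library 4, 0% to 1.59% in library 7 and 0.0879% to 0.595% in library 8. In wild-type libraries they ranged from 0.26% to 1.28% (library 1), 0.074% to 0.538% (library 2), 0% to 0.0309% (library 5) and 0% to 0.0764% (library 6). Of the 7 markers, 4 were at 0 in library 5 and 5 in library 6.

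C3, C4b and Cfb lay above the highest of those markers in all 8 libraries. C3 stood at 19.9%, 11.2%, 6.02% and 6.84% of its fibroblast-like level in deleted libraries 3, 4, 7 and 8, and at 11.1%, 12.6%, 27.6% and 47.8% in wild-type libraries 1, 2, 5 and 6. Cfb stood at 47.6%, 36.5%, 26.7% and 22.9% in deleted libraries and 50.2%, 43.9%, 13.2% and 51.2% in wild-type libraries. C4b stood at 42.1%, 10.6%, 13.2% and 11.6% in deleted libraries and 17.9%, 6.07%, 3.93% and 4.41% in wild-type libraries. In library 3 the excess of C3 over the highest marker was small, 19.9% against 17.7%. Cfb in library 5 rests on 3 macrophage-like UMIs, and C4b in libraries 5 and 6 on 6 each. Fibroblast markers do not measure RNA shared from malignant-like cells. In wild-type libraries those cells held 15.1% to 72.5% of C3, 18.7% to 57.4% of C4b and 18.6% to 71.4% of Cfb UMIs. In deleted libraries they held at most 1.7%, 1.49% and 0.738%. T-like cells also passed their highest marker in some libraries, so that marker may not be an upper limit of shared RNA. In library 4 they stood at 0.919% for C3, 1.2% for C4b and 0.972% for Cfb, against 0.712%. In library 3 C4b (6.9%) and Cfb (6.72%) passed 4.92%, and C3 (3.3%) did not.

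C1s1 and Serping1 differed from those 3. C1s1 stood at 18.8%, 8.48%, 0.22% and 0.275% in deleted libraries and 15.6%, 3.63%, 0.55% and 0.311% in wild-type libraries, and was within the marker range in libraries 7 and 8. In libraries 5 and 6 it rests on 4 and 3 macrophage-like UMIs, and the T-like level was 102% and 338% of the macrophage-like level. Malignant-like cells held 89.5% to 97.8% of C1s1 UMIs in wild-type libraries, and fibroblast markers do not measure RNA shared from them. Serping1 stood at 18%, 3.48%, 1.73% and 0.116% in deleted libraries and 2.2%, 0.229%, 0% and 0% in wild-type libraries. It lay above the highest marker in libraries 3 (18% against 17.7%), 7 (1.73% against 1.59%) and 1 (2.2% against 1.28%), and within the marker range in the other 5. In library 7 Serping1 rests on 6 macrophage-like UMIs. The part of shared RNA in the macrophage-like differences between hosts was not tested beyond these values.

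**Figure D4:**
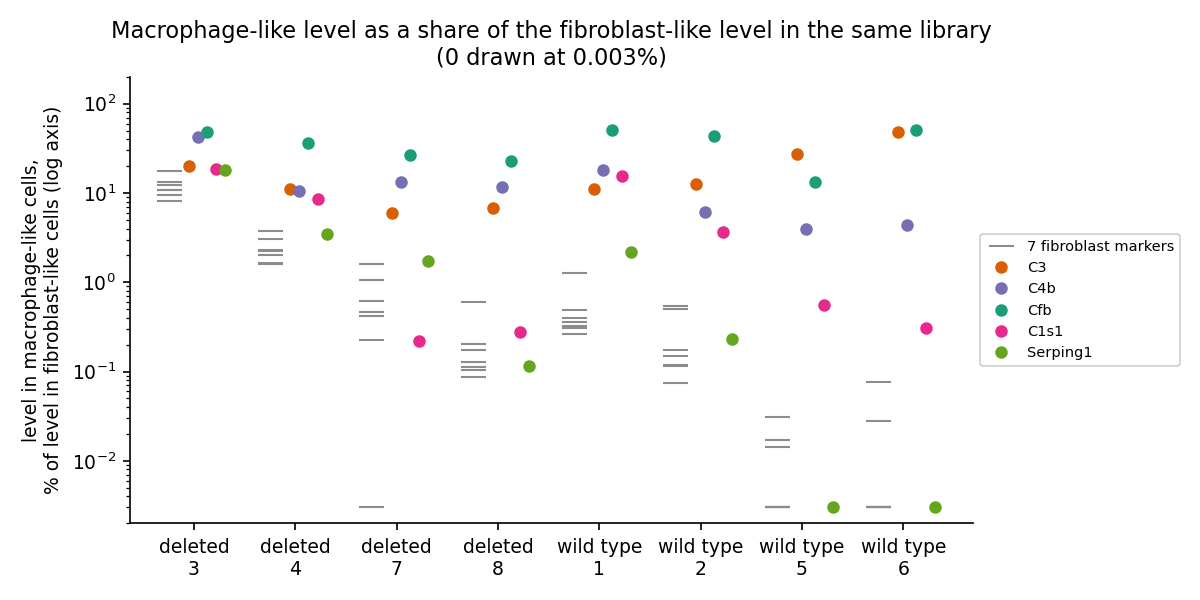
Level in macrophage-like cells as a percentage of the level in fibroblast-like cells of the same library (y axis, log scale, values of 0 drawn near its lower end), deleted libraries left of wild-type libraries; grey dashes are 7 fibroblast markers and coloured points 5 complement genes. C3, C4b and Cfb lie above the markers in every library, while Serping1 lies within their range in 5 of 8 libraries.

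In the other direction, C1q in fibroblast-like cells stood at 0.633% to 7.83% of the macrophage-like level, apart from library 5 with its 53 cells, where C1qa stood at 27.5% and C1qb at 0%. Single macrophage markers in fibroblast-like cells ranged from 0% to 23.4% of their macrophage-like levels. Their sum was 7.96%, 7.01%, 2.23% and 6.67% in deleted libraries 3, 4, 7 and 8 and 8.72%, 3.52%, 3.07% and 2.6% in wild-type libraries 1, 2, 5 and 6. Within a library, C1q percentages lay at or below the highest single marker, except C1qa in library 5 (27.5% against 6.57%) and, in library 6, C1qa (5.69%) and C1qc (5.77%) against 5.44%.

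Counted as sources of the captured UMIs, fibroblast-like cells held 90.9%, 44.3%, 96.4% and 79.8% of all C3 UMIs in deleted libraries 3, 4, 7 and 8, and 20.5%, 27.9%, 11.6% and 8.18% in wild-type libraries 1, 2, 5 and 6. Macrophage-like cells held 8.03%, 46.2%, 1.59% and 8.68% in deleted libraries and 21.2%, 45.4%, 9.73% and 23.1% in wild-type libraries. The remaining wild-type C3 UMIs were mostly in malignant-like cells, at 56.7%, 15.1%, 72.5% and 57.0%, although their level per cell was low, from 0.125 to 0.913 UMIs per 10000. Fibroblast-like cells made up 23.8%, 2.93%, 36.6% and 7.75% of the cells of deleted libraries and 2.11%, 1.08%, 0.914% and 1.16% of those of wild-type libraries, so these shares follow cell numbers as well as levels.

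A fit across all genes gave the background for these differences. In macrophage-like cells limma called 0 of 5738 genes at an adjusted p under 0.05 (0%), with 213 at an unadjusted p under 0.05. Of the 9 genes 7 could be tested there and 0 were called, while C1rb and Serping1 were too rarely detected. With the barcode set as a term the fit called 92 genes (1.6%), again 0 of the 7. All 4 deleted libraries lay above all 4 wild-type libraries for 106 genes (1.85%) and for 0 of the 7. The median difference of the 7 genes was 0.65 (log2 scale of the deposited mean) beside 0.02 for all genes tested, and 7 of 7 were above 0 beside 66.8% of all genes.

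In fibroblast-like cells 4 of 9184 genes were called (0.0436%), with 855 at an unadjusted p under 0.05. They were C1rb, Pianp and Col6a6, higher in deleted hosts, and Acta2, lower. All 9 genes could be tested and 1 was called. With the barcode set as a term, 99 genes were called (1.08%), among them C1rb, C3, C4b and Cfb. All deleted libraries lay above all wild-type libraries for 345 genes (3.76%), among them C1rb, C1s1 and C3. The median difference was 0.82 for the 9 genes beside 0.02 for all genes, with 9 of 9 above 0 beside 60.2% of all genes. Since the 9 genes were chosen on this contrast, their counts carry no evidence of their own.

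In malignant-like cells 1099 of 9239 genes were called (11.9%), 14 higher and 1085 lower in deleted hosts, and 0 of the 7 tested complement genes was. The barcode set term raised the count to 2105 (22.8%), with C1qa among them, and 31 genes (0.336%) lay above wild type in every deleted library, 0 of the 7 among them. The deleted groups hold only 42 to 149 malignant-like cells a library, with median depths of 1921 to 14967 UMIs against 9621 to 16637 in wild-type libraries, and the part of depth in these calls was not tested beyond the alternatives given further on.

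The rest of the pathway was read from a list of 40 other complement genes grouped by role, of which 11 could be tested in macrophage-like, 12 in fibroblast-like and 6 in malignant-like cells. In each class limma called 0 of them. Among the classical and lectin components, 4 of 11 were tested in fibroblast-like cells. C1ra was higher by 0.95 (SE 0.29, adjusted p = 0.25) and C1s2 by 0.46 (SE 0.11, adjusted p = 0.114). With the barcode set as a term, chosen after seeing the data, limma called 1.08% of genes in these cells. The limma adjusted p-values of C1ra and C1s2 were then 0.0338 and 0.0259. Both were higher in 4 of 4 deleted libraries than in any wild-type library, as were 3.76% of genes tested. C1ra shares 36.3% of its 91-base windows with the selected C1rb, and C1s2 11.2% with C1s1, so their counts may not be independent of those genes. C2, the partner of C4, differed by 0.39 (SE 0.21, adjusted p = 0.588) and Masp1 by 0.05.

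Of the 5 membrane regulators Cd55 and Cr1l were tested in fibroblast-like cells. Cd55, which speeds the decay of convertases, had a mean of 3.8 ± 2.12 UMIs per 10000 in deleted and 1.34 ± 0.564 in wild-type libraries, a difference of 0.92 (SE 0.24, adjusted p = 0.169, and 0.0587 with the barcode set as a term). The groups overlapped, at 1.34 in library 8 against 2.02 in library 1. Among the 5 soluble regulators Clu, an inhibitor of the terminal complex, differed by 0.21 (SE 0.07, adjusted p = 0.358).

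Receptors were the best represented role in macrophage-like cells, with 7 of 10 tested. C3ar1 differed by 0.14 (SE 0.26), C5ar1 by 0.06 (SE 0.14), Itgam by 0.47 (SE 0.45) and Itgax, a chain of complement receptor 4, by -0.13 (SE 0.06), each with an adjusted p of 0.999. Cfp, which encodes properdin, was the 1 of 2 alternative pathway genes tested, at 0.47 (SE 0.30, adjusted p = 0.999). None of the 7 terminal pathway genes on the list was detected widely enough to be tested in any of the 3 classes.

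Comparisons within a library were free of the host contrast. Cells with a UMI of a marker gene, read at 1000 UMIs a cell, were set against cells of the same class and library without one. The markers were Cxcl9, an interferon-gamma-induced chemokine, and Arg1, an arginine-degrading enzyme, in macrophage-like cells, and Pi16 or Dpp4, which mark fascial fibroblasts, in fibroblast-like cells. Each of the 9 genes was tested on each marker by a two-sided exact sign-flip permutation test over libraries, with p-values adjusted over the 27 tests. At adjusted p under 0.05, 0 of 27 passed, with 5 at an unadjusted p under 0.05, and the smallest adjusted p was 0.105. The smallest exact sign-flip p possible was 0.0156 for 7 and 0.00781 for 8 libraries. After adjustment over 27 tests, several comparisons had to reach it together for any to pass, so this count does not show that differences are absent.

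In fibroblast-like cells C3 and C4b were higher on the positive side in every library tested. C3 had 63.4, 39.2, 21.1 and 23.3 UMIs per 10000 in Pi16- or Dpp4-positive cells of deleted libraries 3, 4, 7 and 8, against 60.5, 17.5, 19.4 and 12.3 in negative cells. In wild-type libraries 1, 5 and 6 it had 23.8, 8.16 and 7.16 in positive against 6.82, 1.81 and 1.35 in negative cells, while library 2 had too few cells. Positive cells were higher in 7 of 7 libraries, by 1.22 on the log2 scale (SE 0.35, exact permutation p = 0.0156, the smallest that 7 libraries allow, adjusted p = 0.105). C4b was likewise higher in 7 of 7 libraries, by 1.21 (SE 0.31, the same exact p-values). The wild-type positive sides hold 10 to 17 cells.

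Serping1 differed by 0.13 (SE 0.10, higher in 5 of 7, adjusted exact p = 0.448) and C1s1 by 0.57 (SE 0.29, higher in 5 of 7, adjusted exact p = 0.316) on the same marker. The difference of C3 between positive and negative cells was 0.57 in deleted and 2.1 in wild-type libraries. That gap had an exact permutation p of 0.0286, and the smallest p adjusted over the 27 gaps was 0.193.

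In macrophage-like cells C3 was higher in Cxcl9-positive than in Cxcl9-negative cells in 7 of 7 libraries, by 0.77 (SE 0.15, adjusted exact p = 0.105). C1qb was higher in 7 of 7 by 0.47 (SE 0.16, adjusted exact p = 0.105) and C1qa in 6 of 7 by 0.56 (SE 0.15, adjusted exact p = 0.169). Library 7 had too few Cxcl9-positive cells. C4b differed by -0.08 (SE 0.21, adjusted exact p = 0.759).

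On Arg1, C4b was lower in positive cells in 7 of 8 libraries, by -0.88 (SE 0.38, adjusted exact p = 0.241). C1qa was lower in 5 of 8, by -0.56 (SE 0.36, adjusted exact p = 0.357), and the barcode sets differed, at -1.12 in libraries 1 to 4 and -0.00 in libraries 5 to 8. C3 differed by -0.31 (SE 0.21, adjusted exact p = 0.357).

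**Figure D5:**
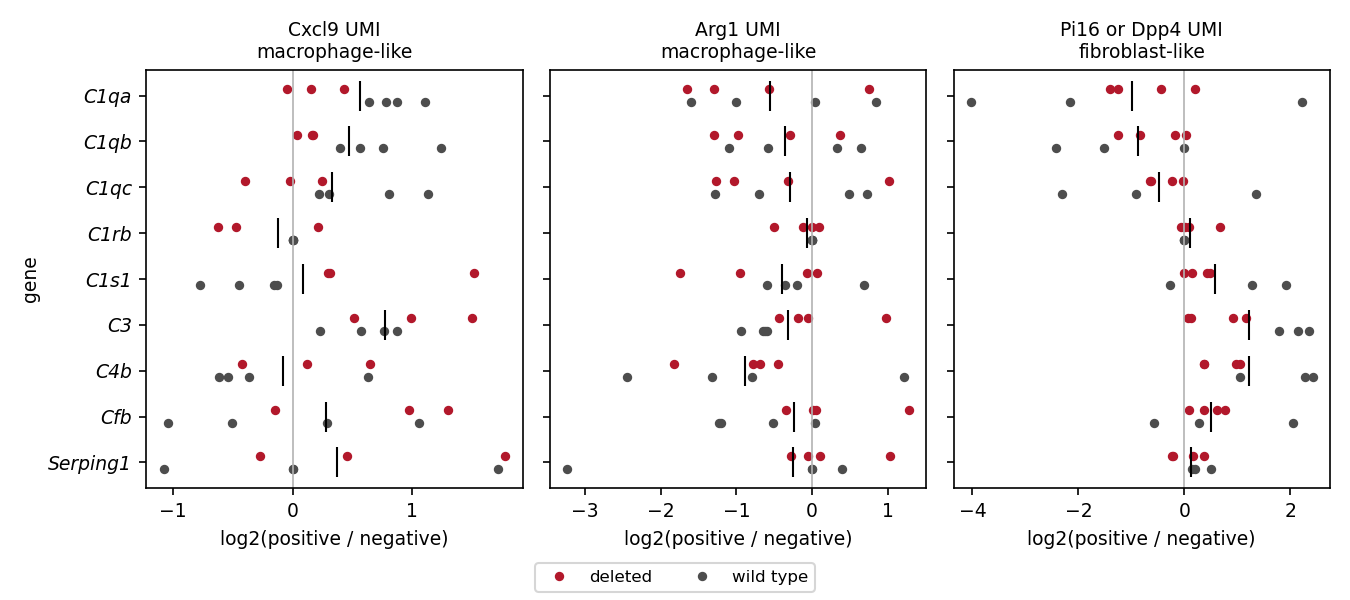
Log2 ratio of the level in marker-positive over marker-negative cells of the same library (x axes) for the 9 genes (rows) in 3 comparisons (panels); red points are deleted and grey points wild-type libraries, and black ticks the mean over libraries. C3 and C4b lie to the right of 0 in all 7 libraries on Pi16 or Dpp4, and C3 and C1qb do so on Cxcl9; none of the 27 means passed an adjusted p under 0.05.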

How the data were processed

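Single cells of 8 tumors, 4 per host genotype, were analysed from the authors' deposited matrices. The deposited values are natural logs of 1 plus UMIs per 10000 UMIs of the cell; per the submitters' processing notes Cell Ranger 2.1, Seurat 3.0 and mm10 were used. Whole UMIs could be recovered from 100% of the values to within 0.01 UMI, so levels are given as mean UMIs per 10000 of a class in a library. A gene without a row in a matrix was read as 0.

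Cells with at least 200 genes and at most 10% mitochondrial UMIs were kept (28488 of 29496, after removal of 919 cells by these filters and 89 called doublets). The doublet caller marked only 0.302% and has therefore not worked, so doublets remain. Cells were clustered with scanpy 1.11.5 and igraph 0.11.9 (2000 variable genes, 30 components, resolution 1) and named from marker lists. The rule that scores clusters on those lists was revised 2 times after cluster names were seen. An earlier version named cluster 12 fibroblast, which here holds 49.3% of the macrophage-like cells of library 3. Clustering without complement genes put 89.4% of cells in the same class. The loss fell largely on macrophage-like cells, since a cluster of 2745 cells that scored best as macrophage was left unnamed. Ccl12, Fabp5 and Pf4 were among its leading genes, as in cluster 2 of the main clustering. Cluster 2 held 70.5% to 77.9% of the macrophage-like cells of libraries 5 to 8. The macrophage-like class of that alternative therefore holds a different selection of cells. Pairs of libraries shared at most 46 cell barcodes (1.24% of the smaller library).

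Host groups were compared with limma 3.58.1 (R 4.3.3, trended moderated variance) on the mean deposited value per class and library divided by ln 2, with at least 20 cells per library and a UMI in at least 5% of cells in 4 libraries. P-values were Benjamini-Hochberg adjusted over all genes and called at 0.05. Differences are deleted minus wild type. Chain shares and marker-split cells (at least 1000 UMIs, at least 10 cells per side, pseudocount 0.05) were tested by exact permutation. The fits were tested on simulated data. Python 3.11.15, numpy 2.4.6, scipy 1.17.1 and pandas 2.3.3 were used. Intervals cover counting error only.

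The 9 genes, the lists and the tests were chosen with earlier results of these data known. Named genes are the 9, other complement genes where called or tested, and the 5 genes most like summed C1q and C1s1. The values of 1 listed gene are not reported here. Nothing states that replicates are separate mice, so p-values measure the spread between tumors. Alternatives were other scales and normalization, thinned counts, stricter cell filters, other clusterings, a barcode set term and leaving out each library.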

Additional observations from a re-analysis of the deposited data

Results flagged for a closer look

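In 69 groups of 4 libraries, a single library's gap to the next exceeded Dixon's 95% critical value 19 times. About 1 in 20 groups would be flagged if values were independent and normally distributed. That rate does not apply to groups near 0, since 1 library above 0 beside only values of 0 is always flagged. All values are UMIs per 10000. Library 3 of the deleted hosts was high for C4b (6.52) and Serping1 (4.21) in macrophage-like cells. In malignant-like cells it was high for C1qb (2.43), C1s1 (4.75), C3 (5.47), C4b (2.11) and Serping1 (1.69), and in neutrophil-like cells for C1s1 (1.42), C4b (3.39) and Serping1 (2.59). Fibroblast markers in that library's macrophage-like cells stood at 8.17% to 17.7% of their fibroblast-like level, and their part in these values was not tested. Deleted library 4 was low for Serping1 in fibroblast-like cells (14). Deleted library 8 was the only deleted library with C1rb in malignant-like cells (0.00424, from 1 UMI) and in neutrophil-like cells (0.00877, from 1 UMI).

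Among wild-type libraries, library 1 was high for C1s1 (2.62) and C3 (0.913) in malignant-like cells and for Serping1 in neutrophil-like cells (0.321). Wild-type library 2 was high for C1qa (0.506), C1qb (0.711) and Cfb (0.0439) in neutrophil-like cells.

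In 4 cases the within-library marker difference itself differed between deleted and wild-type hosts, each at the smallest exact permutation p for its library numbers, 0.0286, and with 0.193 as the smallest p adjusted over 27. On the log2 scale, deleted minus wild type, the gap was -0.68 for C1qa on Cxcl9 (0.17 in deleted, 0.85 in wild-type libraries) and 1.09 for C1s1 on Cxcl9 (0.71 in deleted, -0.38 in wild-type libraries). It was 0.78 for C3 on Arg1 (0.08 in deleted, -0.70 in wild-type libraries) and -1.53 for C3 on Pi16 or Dpp4 (0.57 in deleted, 2.1 in wild-type libraries).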

How the results depend on the processing

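The number of genes called depended strongly on the setting, and the cause was not tested. With 0 calls in macrophage-like cells as fitted, the log2 of the mean level gave 1, median-ratio scaling 3, a barcode set term 92 and cells with at least 500 genes 1; leaving out any 1 library gave 0. With 4 calls in fibroblast-like cells, these gave 10 on the log2 of the mean, 7 with median-ratio scaling, 99 with the set term and 2 on thinned counts, and leaving out a library gave 3 to 45 (11 without library 1, 13 without 4, 10 without 7, 45 without 8). With 1099 in malignant-like cells they gave 35, 91, 2105 and 2, and 320 with at least 500 genes; leaving out a library gave 230 to 1173 (302 without library 2, 271 without 4, 362 without 6, 230 without 8). The set term and the settings without cluster 12 or cluster 2 were chosen after seeing the data. The C1qc share difference of 0.533 became -0.115 with at least 500 genes and ranged from -0.282 to 1.64 when a library was left out; that of C1qa ranged from 3.76 to 9.39 and of C1qb from -10.5 to -3.99. No marker comparison passed under any alternative. On the scale of the fit, the direction of the 9 genes in fibroblast-like cells and of the 7 tested in the other classes was kept in every alternative run, except C1s1 in macrophage-like cells (-0.03 without library 3) and in malignant-like cells, where it turned in 6 of 16. As a ratio of UMI levels, C1qa in fibroblast-like cells was 1.38, and 0.696 without library 3. No paired analysis was possible because the groups share no replicate numbers. Few wild-type fibroblast-like and few deleted malignant-like cells limit those levels.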
